A study of Mus musculus with 44 samples.

Results

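Fragments of the histidine tRNA with anticodon GTG (HisGTG) were followed in small RNA libraries of the mouse hypothalamus, which controls appetite and body weight. A tRNA fragment (tRF) was taken as a member when its row of the deposited table named histidine tRNAs and no other tRNA, and when its counts summed over the 44 libraries reached 220. This left 54 of the 447 histidine rows and of the 17051 tRFs in the table. The members held 138198 counts, 95.9% of the histidine counts and 3.02% of the 4569025 tRF counts. The last members inside the limit were tRF-28-7EMQ18Y3E7D8 with 229 counts and tRF-23-FSXMSL730H with 241, and the first rows outside it were tRF-18-18Y3E7D8 with 207 and tRF-32-FSXMSL73VL4YK with 200. The 393 rows under the limit had a median of 3 counts each. The members were thus chosen by their summed counts, and their totals are given as a description.

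Histidine tRNA differs from other tRNAs at its 5' end. After transcription an extra guanine is joined in front of its first base, at the position called -1, by the enzyme THG1L, and the histidyl-tRNA synthetase reads this guanine when it loads the amino acid. Long fragments of the 5' side arise when a nuclease such as angiogenin cuts in the anticodon loop.

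All mice were C57Bl/6J. AM132 (16 libraries) came from mice made obese by 11 weeks of high fat diet and injected intravenously on 3 days, at 3.3 mg/kg, with a locked nucleic acid oligonucleotide of 16 nt complementary to miR-132. AM608 (16 libraries) came from mice of the same diet given a control oligonucleotide of 15 nt, directed at miR-608, a miRNA of primates, and both groups were killed 7 days after treatment. RCD (12 libraries) came from age-matched lean mice on regular chow, which are not described as injected, so diet and injection cannot be told apart against RCD. The labels name 4 batches without saying what was done together. There were 4 AM132 and 4 AM608 libraries in batch 1 and as many in batch 3. Batch 2 was made up of 8 libraries of AM132, 8 of AM608 and RCD 9 to 12, and RCD 1 to 8 formed batch 4.

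A library held 38619 to 221358 tRF counts. The histidine members made up 1.18 to 6.49% of them, with a median of 2.87%. Neuronal miRNAs (4 of 4 listed were found) were abundant in all libraries. Their summed level was 100201 to 159288 CPM (counts scaled to a library total of 1e6, here of miRNA counts) in batch 2 and at least 253338 CPM in the other batches. miRNAs of choroid plexus and ciliated cells (6 of 6 found, none at 0 throughout) stood at 1230 to 2016 CPM in batch 2, 90.3 to 236 CPM in batches 1 and 3, and 255 to 1799 CPM in batch 4. Pituitary miRNAs were high in AM132 6 and AM608 5 and, at 2095 CPM, raised in AM132 5, and muscle miRNAs were high in AM132 6. Fits were therefore made within batch or with batch as a term. Each library is taken as 1 replicate, and p-values measure the spread between these libraries.

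The sequences below show the shape of the group. Capitals mark the base at position -1 and the anticodon bases, positions 34 to 36. The first 3 carry guanine at -1 and differ in where they end, the next pair are the short pieces with thymine or adenine at -1, and the last 4 begin at position 1, 2 or 3. tRF-37-6SXMSL73VL4YMYP was picked after its values were seen.
tRF-31-6SXMSL73VL4YD: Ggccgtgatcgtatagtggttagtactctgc
tRF-34-6SXMSL73VL4YHE: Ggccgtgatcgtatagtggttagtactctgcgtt
tRF-37-6SXMSL73VL4YMYP: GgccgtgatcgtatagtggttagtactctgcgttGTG
tRF-24-XSXMSL732Z: Tgccgtgatcgtatagtggttagt
tRF-24-FSXMSL732Z: Agccgtgatcgtatagtggttagt
tRF-34-PW5SVP9N15WV2P: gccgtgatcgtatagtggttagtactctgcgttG
tRF-36-PW5SVP9N15WV7W0: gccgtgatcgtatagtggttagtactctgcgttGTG
tRF-35-34HWH3RXSINHZ4: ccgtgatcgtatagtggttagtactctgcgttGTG
tRF-34-MUWLV47PU9XWK0: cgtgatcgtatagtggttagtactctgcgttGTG

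These are pieces of 1 sequence. Of the 54 members, 44 contain positions 16 to 30, so they are not independent of each other. The authors' types divide them into 31 pieces of the 5' end (14 named 5'-half and 17 named 5'-tRF), 21 internal pieces and 2 pieces of the 3' end. The 5' members held 61465 counts (44.5% of the members' counts), the internal members 76220 (55.2%) and the 3' members 513 (0.371%). The table lists 9 tRNA locations for most members and 10 for the others. Over the whole table, 421 rows name chromosome 20, 21 or 22, which the mouse does not have, so its locations are not given here.

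Most internal pieces were the 5' end short of a base or a pair of bases. The 7 members that began at position 2 held 48146 counts (34.8% of the members' counts) and the 7 that began at position 3 held 25111 (18.2%). The 7 members with guanine at -1 held 30886 counts (22.3%), the 7 beginning at position 1 held 17125 (12.4%), the 12 with thymine at -1 held 11181 (8.09%) and the 5 with adenine at -1 held 2273 (1.64%). Pieces that began deeper in the tRNA were few, with 1110 counts in 2 members that began at position 4 and 1853 in 5 members further in.

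At the other end, 44 members stopped at positions 30 to 36, from the 3' side of the anticodon stem's first strand through the anticodon, and these held 93.5% of the members' counts. Where a piece stopped went with where it began. Of the counts that began at position 3, 63.8% ended at position 36, the last base of the anticodon, and of those that began at position 2, 39.8% did. Of the counts with guanine at -1, 5.32% ended at 36 and 35.8% ended at 33, the base before the anticodon. The commonest piece was tRF-35-34HWH3RXSINHZ4 (positions 2 to 36) with 19175 counts, followed by tRF-34-MUWLV47PU9XWK0 (3 to 36) with 16020 and tRF-34-6SXMSL73VL4YHE (guanine at -1, to 33) with 11055.

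**Figure D1:**
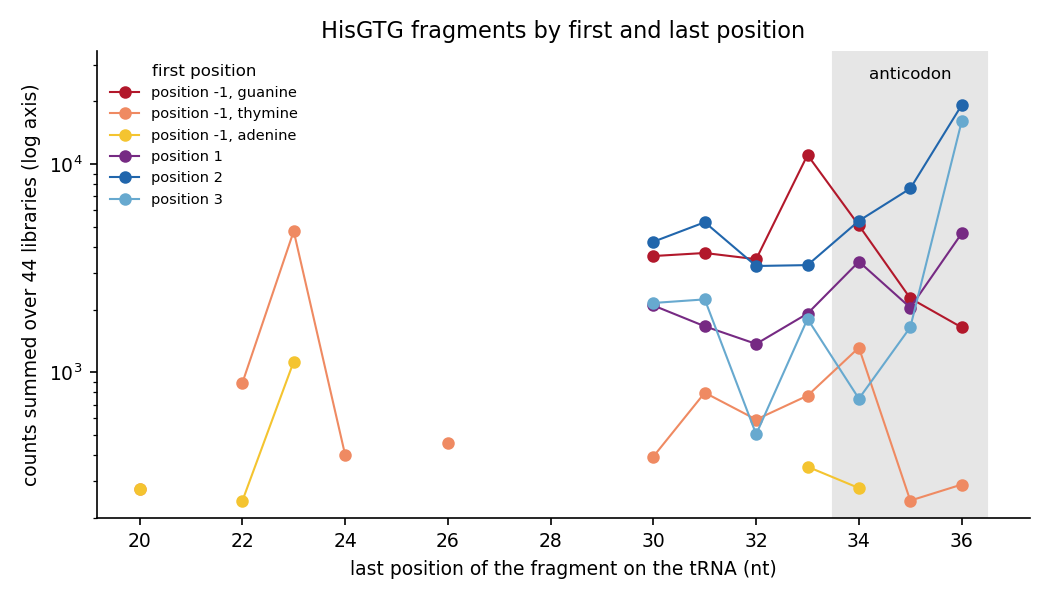
Counts of the HisGTG members summed over 44 libraries (log axis) against the last position of the piece on the tRNA, with a line for each first position and the anticodon shaded. Pieces that began at 2 or 3 were highest at 36, pieces with guanine at -1 were highest at 33, and the short pieces that ended at 20 to 26 had thymine or adenine at -1.

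The base at -1 went with the length of the piece. Over all histidine rows of any total, 30937 of the 30941 counts with guanine at -1 lay in pieces of 31 nt or more, and 3 counts lay in pieces of 27 nt or less. Of the counts with thymine at -1, 60.6% lay in pieces of 27 nt or less, and of those with adenine 59.2%. Cytosine at -1 was rare, with 70 counts, all in pieces of 31 nt or more. Among the members of 31 nt or more with a base at -1, guanine made up 84.9% ± 3.48 (SD, n = 44 libraries) of the counts, with a lowest library of 75.3% and a highest of 90.7%. Long pieces with a base at -1 therefore had mostly guanine in every library, while the short ones had almost none. These bases are as the table spells its fragments, and how reads were matched to it is not given in the sources used here.

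The levels of the members varied among libraries of the same group and batch, and much more so for some members than for others. Levels are given as CPM of tRF counts after TMM scaling. tRF-35-34HWH3RXSINHZ4 had a lowest library of 10.8 CPM (1 count), a median of 3575 and a highest of 8600 CPM in AM132. In AM608 its lowest, median and highest libraries were 12.7, 6853 and 17120 CPM, and in RCD 32.7, 1213 and 5677 CPM. The groups overlapped over nearly their whole range. tRF-34-6SXMSL73VL4YHE, with guanine at -1, had a lowest library of 963, a median of 2315 and a highest of 5904 CPM in AM132. In AM608 these were 536, 1636 and 3812 CPM, and in RCD 1106, 2254 and 5176 CPM. Its highest library stood far closer to its lowest than for the internal piece, and its groups overlapped too.

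The spread within group and batch went with where a piece began and ended. Among members of at least 1000 counts, the SD of log2 CPM within group and batch was 0.93 to 2.15 for pieces that began at 2 and 1.25 to 2.07 for those that began at 3. It was 0.54 to 0.79 for the 6 pieces with guanine at -1 that ended before 36, and 1.18 for the one that ended at 36. tRF-36-PW5SVP9N15WV7W0, from position 1 to 36, had an SD of 1.64. The other 6 pieces from position 1 had 0.46 to 1.25, highest for the one that ended at 35.

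The same split was seen in which pieces moved alike. Across the 44 libraries, all internal members of at least 1000 counts followed tRF-35-34HWH3RXSINHZ4, with Pearson correlations of log2 CPM of 0.86 to 0.97 for the other pieces that began at 2, and 0.78 to 0.96 for those that began at 3. Pieces of the 5' end of at least 1000 counts that stopped at 35 or 36 followed it too. The correlation was 0.93 (Spearman 0.82) for tRF-36-PW5SVP9N15WV7W0 and 0.90 (Spearman 0.85) for tRF-37-6SXMSL73VL4YMYP. For the ends at 35 it was 0.92 for tRF-35-PW5SVP9N15WV7W, from position 1, and 0.74 for tRF-36-6SXMSL73VL4YMYE, with guanine at -1, both picked after their values were seen. Internal members of under 1000 counts were mixed. The correlation was 0.445 to 0.83 for those that began at 3 or 4, and -0.23 to 0.22 for the 5 that began further in. With thymine at -1, in pieces of under 1000 counts, it was 0.70 for the end at 36 and 0.18 for the end at 35. Earlier ends had lower values for position 1 and for guanine at -1. For pieces from position 1 that stopped at 30, 31, 32, 33 and 34 it was 0.17, 0.29, 0.59, 0.51 and 0.04, and for guanine at -1 it was 0.10, 0.12, 0.14, 0.17 and -0.06. Within single batches the correlation of tRF-36-PW5SVP9N15WV7W0 was 0.43 to 0.98 and that of tRF-37-6SXMSL73VL4YMYP 0.81 to 0.93. For the ends at 35 it was 0.06 to 0.95 for tRF-35-PW5SVP9N15WV7W and 0.20 to 0.91 for tRF-36-6SXMSL73VL4YMYE. Earlier ends also reached high values in single batches, for example -0.14 to 0.84 from position 1 to 33 and -0.44 to 0.73 for guanine at -1 to 31. The authors' division into 5' and internal pieces therefore did not coincide with which pieces moved alike, and for position 1 there was no single step, as the ends at 32 and 33 lay between. These are descriptions over libraries whose TMM scaling and depth the pieces share.

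**Figure D2:**
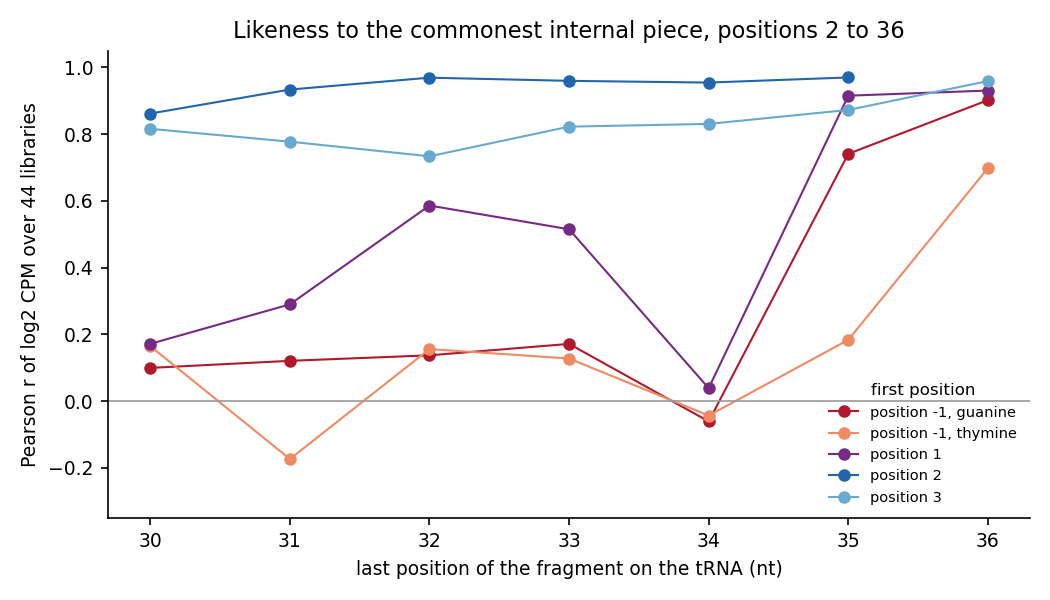
Pearson correlation of each HisGTG piece's log2 CPM with that of the piece from position 2 to 36, over 44 libraries, against the last position of the piece, with a line for each first position. Pieces from 2 or 3 lie high at every end, while pieces from -1 or 1 lie lower up to position 34 and reach 0.90 and 0.93 at 36 for guanine at -1 and for position 1.

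The 4 libraries of highest summed 5' over summed internal counts were picked on those counts, so their values are a description. In AM132 8, AM132 12, AM608 8 and RCD 10 the piece from 2 to 36 stood at 511, 10.8, 12.7 and 32.7 CPM, and the piece from 1 to 36 at 107, 21.64, 25.3 and 21.8 CPM. In the same libraries the piece with guanine at -1 that ended at 33 stood at 2150, 963, 1747 and 1831 CPM. Both pieces ending at 36 were low in all 4 libraries. The piece ending at 33 was at its AM132 minimum in AM132 12 and nearer the middle of its range in the other 3.

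The balance of 5' and internal pieces was summed up for each library as the log2 of summed 5' counts over summed internal counts, with 1 added to each sum. This needs no scaling between libraries. In AM132 the lowest, median and highest libraries were -0.997, 0.49 and 3.11, and in AM608 -2.09, -0.91 and 3.57. In RCD they were -1.03, 1.10 and 4.31. The means were 0.66 ± 1.27 (SD, n = 16) in AM132, -0.41 ± 1.41 (SD, n = 16) in AM608 and 1.06 ± 1.56 (SD, n = 12) in RCD. The 4 RCD libraries of batch 2 fell apart into 2.18 and 4.31 (RCD 9 and 10) on one side and -0.99 and -1.03 (RCD 11 and 12) on the other. RCD 9 and 10 held 60884 and 69012 tRF counts, and RCD 11 and 12 held 160383 and 151203. The part of depth in this split was not tested.

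With batch as a term the log2 ratio was 1.07 higher in AM132 than in AM608, and the SD within group and batch was 1.29. The difference was 1.46, 0.91 and 0.99 in batches 1, 2 and 3. In 13 of 16 AM132 libraries the ratio lay above the mean of the AM608 libraries of the same batch. The groups overlapped in every batch. No test is given, because the ratio is a score over members chosen with results known. Leaving out each library in turn moved the difference between 0.92, without AM608 1, and 1.32, without AM608 8. AM608 1 had the lowest ratio, -2.09, and the highest share of histidine pieces, 6.49% of its tRF counts.

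**Figure D3:**
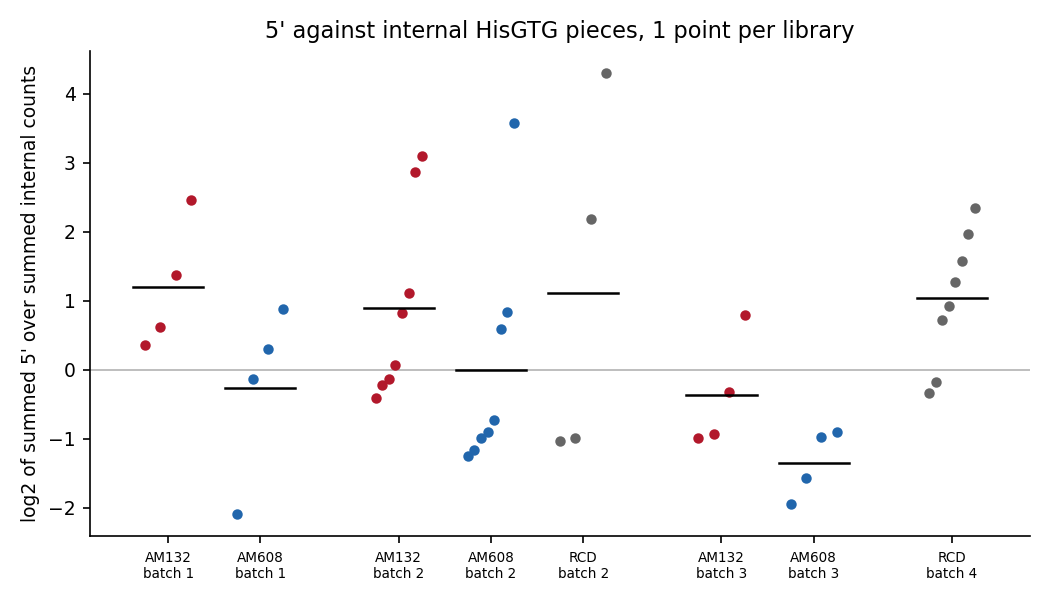
The log2 of summed 5' over summed internal HisGTG counts, 1 point per library, by group and batch, with group means as bars. The AM132 mean lies above the AM608 mean in batches 1, 2 and 3, the points of the groups overlap, and single libraries of batch 2 reach 3.57 in AM608 and 4.31 in RCD.

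The histidine ratio moved with that of other tRNAs. Over 44 libraries its Pearson correlation with the same ratio over all other tRNAs was 0.83 (Spearman 0.84), and 0.81 without the 2 libraries farthest from the median. Within batches the Pearson correlation was 0.76 to 0.92, and the Spearman correlation ran from 0.52, in batch 1, to 0.83. The ratio of other tRNAs was itself 0.50 higher in AM132 than in AM608. With the log2 of tRF counts of a library the histidine ratio had a correlation of -0.61. The part of depth in the difference between groups was not tested.

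The question of the study was how the hypothalamus of obese mice differed after the oligonucleotide against miR-132, and no HisGTG fragment passed the test between AM132 and AM608. edgeR's quasi-likelihood test on counts, with batch as a term and Benjamini-Hochberg adjustment, covered 494 tRFs, of which 38 were members, and 0 passed an adjusted p of 0.05 (0% of all tRFs tested). At an unadjusted p under 0.05 there were 33 tRFs (6.68%), 20 with higher values (4.05%) and 13 with lower (2.63%). Members made up 16 of these 33. The 8 with higher values in AM132 were all 5' pieces, and the 8 with lower values were all internal. The number of members at this level moved with the fit. It was 6 of 19 tRFs without AM608 1, 7 of 18 with no batch term, 10 of 37 with the replicate number as a block, and 19 of 43 with DESeq2. Over all members tested, the fold change was above 0 for 19 of 22 5' pieces, with a median log2 fold change of 0.27, and below 0 for 14 of 16 internal pieces, with a median of -0.82. Over all tRFs tested 52.8% lay above 0 and the median was 0.01.

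By first position, the median log2 fold change was 0.51 for guanine at -1 (6 of 7 above 0), 0.19 for thymine at -1 (7 of 7 above 0), 0.13 for position 1 (5 of 7 above 0), -0.81 for position 2 (7 of 7 below 0) and -0.90 for position 3 (6 of 6 below 0). It was -0.79 for the 1 piece tested from position 4. The 2 internal pieces tested from further in were both above 0, with a median of 0.10. For 5' pieces with guanine at -1 or from position 1, the log2 fold change also went with the last position. For guanine at -1 the values from an end at 30 to an end at 36 were 0.91, 0.67, 0.51, 0.63, 0.51, 0.28 and -0.11. For position 1 they were 0.49, 0.43, 0.13, 0.10, 0.26, -0.31 and -0.28. Both series were lowest where the piece ran to 35 or 36, and the pieces that began at 2 or 3 were below 0 at each end tested. Taken alone, batches 1 and 2 also had both series lowest at 35 or 36. In batch 3 alone, position 1 was lowest at 34 (0.15), with 0.41 and 0.36 at 35 and 36, and guanine at -1 had 0.08 at 34 and at 36. With thymine at -1 the values for ends at 31 to 34 were 0.58, 0.10, 0.41 and 0.39. Its ends at 35 and 36 were not tested. For other tRNAs the 5' pieces had a median of 0.19 (90 of 124 above 0) and the internal pieces one of -0.04 (146 of 247 below 0).

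**Figure D4:**
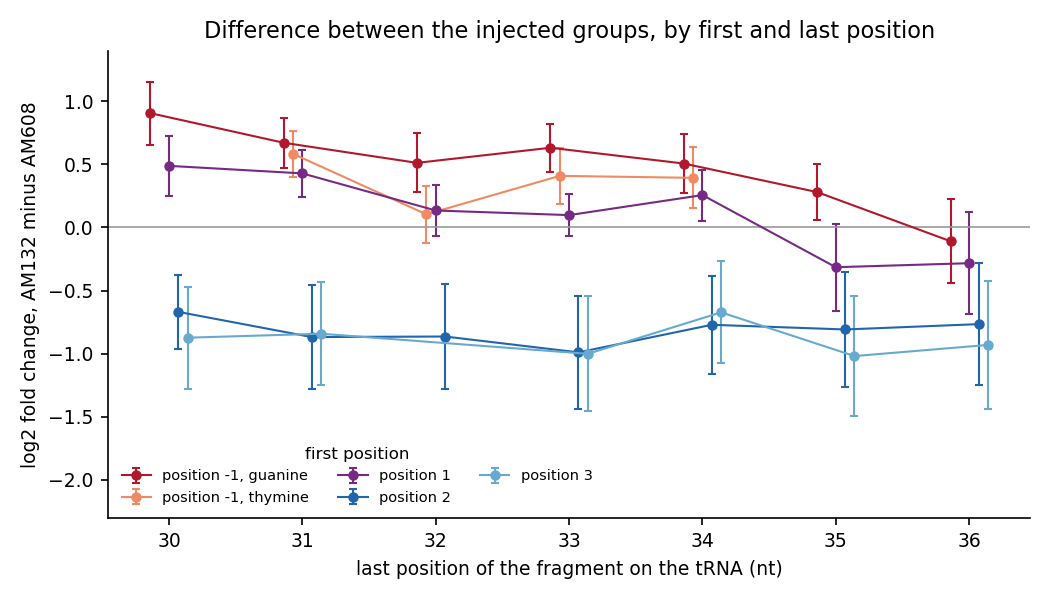
Log2 fold change of AM132 minus AM608, with its SE, for HisGTG pieces that end at positions 30 to 36, with a line for each first position. Points for guanine at -1 run from 0.91 at 30 to -0.11 at 36, and points for positions 2 and 3 lie between -0.67 and -1.02.

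The 4 members of smallest p were 5' pieces of 31 to 34 nt with a base at -1. tRF-31-6SXMSL73VL4YD had lowest, median and highest libraries of 379, 958 and 2019 CPM in AM132, 145, 538 and 1446 CPM in AM608, and 360, 553 and 1328 CPM in RCD. Its log2 fold change of AM132 minus AM608 was 0.91 ± 0.25 (SE; adjusted p = 0.4098, edgeR), with 14 of 16 AM132 libraries above the AM608 mean of their batch. The groups overlapped, and this difference did not pass the correction.

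tRF-32-6SXMSL73VL4YK, 1 base longer, had lowest, median and highest libraries of 433, 1042 and 1948 CPM in AM132 and 275, 687 and 1340 CPM in AM608. Its log2 fold change was 0.67 ± 0.20 (SE; adjusted p = 0.4098, edgeR; 14 of 16 libraries). tRF-34-6SXMSL73VL4YHE, whose levels are given above, had a log2 fold change of 0.63 ± 0.19 (SE; adjusted p = 0.4098, edgeR; 14 of 16 libraries). All 3 carry guanine at -1, and in none did the groups separate.

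tRF-32-XSXMSL73VL4YK, with thymine at -1, was less abundant, with lowest, median and highest libraries of 136, 253 and 336 CPM in AM132 and 58.8, 161 and 278 CPM in AM608. Its log2 fold change was 0.58 ± 0.18 (SE; adjusted p = 0.4107, edgeR; 12 of 16 libraries). Further named members with unadjusted p under 0.05 were tRF-31-PW5SVP9N15WV0, from position 1, with 0.43 ± 0.19 (SE), and tRF-33-6SXMSL73VL4YDN and tRF-35-6SXMSL73VL4YMY, with guanine at -1, with 0.51 ± 0.23 and 0.51 ± 0.24. Among the named internal pieces these were tRF-29-34HWH3RXSIHM with -0.67 ± 0.29 and tRF-30-34HWH3RXSINH with -0.87 ± 0.41. The adjusted p of these 5 was 0.6415 in edgeR.

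The 2 commonest internal pieces had larger errors. tRF-34-MUWLV47PU9XWK0 had lowest, median and highest libraries of 32.5, 1968 and 8465 CPM in AM132, 37.97, 5134 and 13310 CPM in AM608, and 27.9, 603 and 6710 CPM in RCD. Its log2 fold change of AM132 minus AM608 was -0.93 ± 0.50 (SE; adjusted p = 0.6415, edgeR), with 11 of 16 AM132 libraries below the AM608 mean of their batch. tRF-35-34HWH3RXSINHZ4 had -0.77 ± 0.49 (SE; adjusted p = 0.6496, edgeR; 9 of 16 libraries). The groups overlapped for both pieces, and neither difference passed the test.

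**Figure D5:**
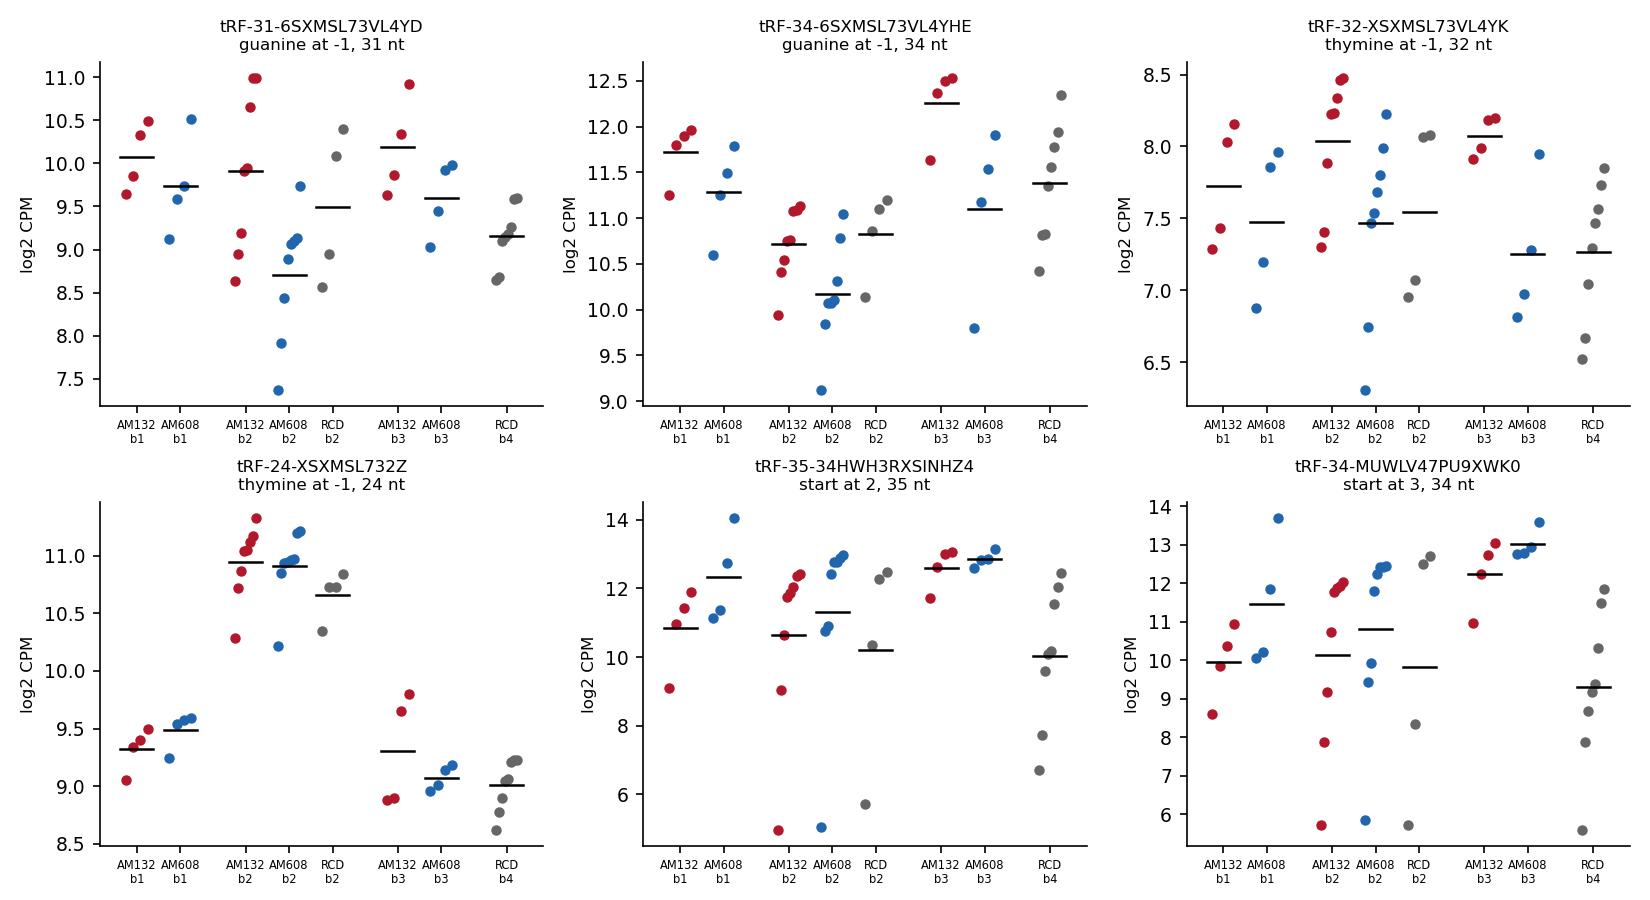
Log2 CPM of 6 HisGTG pieces, 1 point per library, by group and batch (b1 to b4), with group means as bars. The upper row holds long 5' pieces, whose AM132 means lie above the AM608 means in batches 1 to 3. The lower row holds a 24 nt piece that is high in all libraries of batch 2, and 2 internal pieces with single libraries far below the rest.

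Taken batch by batch, the median log2 fold change of the 5' members was 0.01, 0.32 and 0.43 in batches 1, 2 and 3, and that of the internal members -1.99, -0.56 and -0.19. Without AM608 1, a library of batch 1, the internal median over all batches was -0.56. A test of the interaction of group and batch covered 754 tRFs, of which 3 (0.398%) passed an adjusted p of 0.05 and 0 of the 48 members tested did (smallest adjusted p 0.9998, edgeR; 0 members at an unadjusted p under 0.05, against 5.97% of all tRFs). Erythroid miRNAs (5 of 5 found, none at 0 throughout), a sign of blood in the tissue, had medians of 1133, 1102 and 962 CPM in AM132 and 873, 1028 and 708 CPM in AM608 in batches 1, 2 and 3. Their part in the differences was not tested.

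The comparisons with lean mice used batch 2 alone, with 8 libraries of each injected group and the 4 RCD libraries, which both comparisons share. For AM608 minus RCD, 0 of 575 tRFs passed (0%) and 28 had an unadjusted p under 0.05 (4.87%), 14 with higher values (2.43%) and 14 with lower (2.43%). Of 44 members tested 2 were among these, both with guanine at -1 and both with lower values in AM608. tRF-35-6SXMSL73VL4YMY stood at 2466, 2823, 907 and 906 CPM in RCD 9 to 12. In AM608 of batch 2 its lowest, median and highest libraries were 333, 876 and 1253 CPM, and its log2 fold change was -1.18 ± 0.48 (SE; adjusted p = 0.8394, edgeR), with 8 of 8 libraries below the RCD mean. The difference lay with RCD 9 and RCD 10, since the other 2 RCD libraries fell inside the AM608 range.

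tRF-34-6SXMSL73VL4YHE stood at 2335, 1831, 2173 and 1106 CPM in RCD 9 to 12, and had lowest, median and highest libraries of 536, 1071 and 2091 CPM in AM608 of batch 2. Its log2 fold change was -0.70 ± 0.31 (SE; adjusted p = 0.8447, edgeR; 7 of 8 libraries). Over the members tested the median log2 fold change of AM608 minus RCD was -0.10 for 28 5' pieces and 0.13 for 16 internal pieces, against 0.09 for all tRFs, of which 58.6% lay above 0. For guanine at -1 it was -0.62 (6 of 7 below 0) and for position 2 it was 0.63 (7 of 7 above 0). For positions 2 and 3 together it was 0.32. That value was -0.01 without RCD 9 and -0.06 without RCD 10, but 0.88 without RCD 11 and 0.67 without RCD 12.

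For AM132 minus RCD, 0 of 575 tRFs passed (0%) and 21 had an unadjusted p under 0.05 (3.65%), 15 with higher values (2.61%) and 6 with lower (1.04%). Of 44 members tested 3 were among these, all 5' pieces with thymine or adenine at -1 and all with higher values in AM132. They were tRF-27-XSXMSL73VL3 (0.80 ± 0.35, SE), tRF-21-FSXMSL73E (0.64 ± 0.28) and tRF-31-XSXMSL73VL4YD (0.87 ± 0.41), and edgeR gave all 3 an adjusted p of 0.9936. tRF-27-XSXMSL73VL3 stood at 102, 87.2, 53.4 and 104 CPM in RCD 9 to 12, and had lowest, median and highest libraries of 45.4, 156 and 248 CPM in AM132 of batch 2. Over the members tested the median was 0.30 for 28 5' pieces and -0.29 for 16 internal pieces, against 0.06 for all tRFs, of which 56.3% lay above 0. Without RCD 11 the internal median was 0.73 for AM608 minus RCD and 0.18 for AM132 minus RCD, and without RCD 12 it was 0.41 and 0.07. Without RCD 9 it was -0.10 and -0.62 in the same order, and without RCD 10 -0.30 and -0.57. The sign of both medians therefore turned with which RCD library was left out.

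The short 5' pieces differed between batches. tRF-24-XSXMSL732Z, with thymine at -1 and an end at 23, had lowest, median and highest libraries of 1167, 1944 and 2554 CPM in the 20 libraries of batch 2 and 373, 566 and 872 CPM in the 24 libraries of the other batches. tRF-24-FSXMSL732Z, the same piece with adenine at -1, had 247, 440 and 756 CPM in batch 2 and 65.2, 117 and 213 CPM elsewhere. Batch 2 and the other batches did not overlap for these 2 members, both higher in batch 2, of the 54. Among all 761 tRFs of at least 220 counts, 14 (1.84%) did not overlap.

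Within RCD, where 8 libraries of batch 4 were compared with 4 of batch 2, 50 of 510 tRFs passed (9.8%), 23 of them higher in batch 4 (4.51%) and 27 lower (5.29%). Of 36 members tested 3 passed, no larger a share than of all tRFs. All 3 were lower and were 5' pieces of 24 nt or less. They were the only 5' members of 27 nt or less that were tested here. A piece could pass the filter on low counts by its level in batch 2 alone. tRF-24-XSXMSL732Z stood at 1678, 1678, 1281 and 1818 CPM in RCD 9 to 12 of batch 2, and had lowest, median and highest libraries of 373, 512 and 580 CPM in batch 4. It fell by 1.59 ± 0.21 on the log2 scale (SE; adjusted p = 0.000273, edgeR). tRF-24-FSXMSL732Z stood at 365, 381, 290 and 415 CPM in batch 2 and had 65.2, 88.3 and 176 CPM in batch 4, and fell by 1.71 ± 0.25 (SE; adjusted p = 0.000742, edgeR). The groups were separate for both pieces.

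tRF-23-XSXMSL730H, which ends 1 base earlier and is named because it was 1 of 3 called, fell by 1.23 ± 0.34 (SE; adjusted p = 0.0381, edgeR). It did not pass without RCD 9, RCD 10 or RCD 12 (adjusted p 0.05855, 0.1132 and 0.05796) or with no filter on low counts (0.1214). With no filter on low counts 11 members passed, and with a filter of at least 10 CPM 5 did. The short 5' pieces of other tRNAs did not share this direction, as 23 of 28 tested pieces of 27 nt or less had higher values in batch 4, with a median log2 fold change of 0.43.

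Batch 2 was also set against batches 1 and 3 in the injected groups. In the fit of AM132 and AM608, a contrast of batch 2 with the mean of batches 1 and 3, added after the short pieces had been seen to differ, called 246 of 494 tRFs (49.8%), 143 higher in batch 2 (28.9%) and 103 lower (20.9%). Of 38 members 11 passed, a smaller share than of all tRFs. A piece could pass the filter on low counts by its level in batch 2 alone, and the contrast was picked on values already seen, so these calls are a description. Of the 8 short 5' members, 4 were tested. These 4 were all among the calls and all higher in batch 2. Their log2 fold changes were 1.67 ± 0.14 (SE) for tRF-24-XSXMSL732Z and 1.88 ± 0.17 for tRF-24-FSXMSL732Z. They were 1.38 ± 0.18 for tRF-23-XSXMSL730H and 0.56 ± 0.22 for tRF-27-XSXMSL73VL3. The other 7 members called were lower, 6 of them 5' pieces of 33 nt or more, such as tRF-34-6SXMSL73VL4YHE with -1.17 ± 0.19 (SE). Short 5' pieces of other tRNAs were about evenly divided, with 13 of 24 above 0 and a median of 0.04.

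As a share of the 5' counts of the histidine members, pieces of 27 nt or less made up 25.62% ± 10.3 (SD, n = 20) in batch 2, against 8.43% ± 2.47 (n = 8) in batch 1, 7.134% ± 2.27 (n = 8) in batch 3 and 9.27% ± 3.94 (n = 8) in batch 4. For the 5' counts of other tRNAs the shares were 1.87% ± 0.39, 1.80% ± 0.73, 1.86% ± 0.72 and 3.08% ± 0.66 in the same order. The histidine share was highest on average in batch 2, where single libraries ran from 12.0 to 52.4%, and these overlapped the highest libraries of batches 1 and 4, at 13.3 and 16.8%. The mean share of other tRNAs was highest in batch 4. The miRNAs of choroid plexus and ciliated cells were higher, and neuronal miRNAs lower, in batch 2 as well. RCD 2 of batch 4 had 1799 CPM of the choroid plexus and ciliated-cell miRNAs, inside the range of batch 2. Its neuronal miRNAs, at 257109 CPM, lay outside that range, and its tRF-24-XSXMSL732Z was the lowest of the RCD libraries, at 373 CPM. The part of tissue content in the level of the short pieces was not tested. What was done differently in batch 2 cannot be told apart from its mice or tissue.

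Between the injected groups the short pieces were close. tRF-24-XSXMSL732Z had a log2 fold change of 0.09 ± 0.14 (SE; adjusted p = 0.8399, edgeR) for AM132 minus AM608, and tRF-24-FSXMSL732Z one of 0.23 ± 0.17 (SE; adjusted p = 0.7141, edgeR). The median of the 4 short 5' members tested was 0.14, against 0.40 for the 18 5' members of 30 nt or more. Neither piece passed the test.

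The 2 pieces of the 3' end are named for being the whole of their type. tRF-21-WB8US565D and tRF-22-WB8US5652 run to the end of the mature tRNA without and with its last adenine. tRF-21-WB8US565D had lowest, median and highest libraries of 8.47, 46.7 and 78.4 CPM in AM132, 23.1, 63.7 and 101 CPM in AM608, and 29.2, 60.5 and 228 CPM in RCD. tRF-22-WB8US5652 had 9.09, 34.6 and 97.5 CPM, 8.70, 37.5 and 101 CPM, and 43.6, 78.3 and 152 CPM in the same order. Both lay under the filter on low counts in all the comparisons of groups and were not tested.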

How the data were processed

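Small RNA of 44 hypothalamus samples was profiled by the authors from 200 ng RNA (integrity number above 8.4) with the NEBNext small RNA kit on a NextSeq 500, per the labels' protocols. The authors deposited raw counts per tRF and per mature miRNA, in which each value is an unnormalised read count. The submitters' processing notes name FastQC alone, and the aligner and build are not given in the sources used here. tRF counts were tested with edgeR 4.0.16 in R 4.3.3: filterByExpr (minimum count 10, minimum total 15), TMM scaling, quasi-likelihood F tests, and Benjamini-Hochberg adjustment over all tRFs tested, at 0.05. SE is the absolute log2 fold change over the square root of F. Log2 CPM used a prior count of 2. Scripts were tested on simulated data. The closest pair of libraries in a group differed by a chi-square of 4.21 per degree of freedom, so none was counted as a duplicate. The depth of 38619 to 221358 tRF counts limits the precision of low members.

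Named members are the 8 most abundant tested 5' pieces, the 6 most abundant tested internal pieces, the 2 most abundant of other type, the 5 of smallest p in each of AM132 minus AM608, AM608 minus RCD and AM132 minus RCD, and those just inside and outside the limit of 220. The members, lists and rules were chosen with earlier results of these data known. Alternatives were RLE scaling, DESeq2 1.42.0, other filters, no batch term, single batches, a replicate block, all 44 libraries, TMM over both tables, no fragments of 47 to 50 nt, and left-out libraries. Chosen after seeing the data were the fits without the 4 libraries of highest ratio, without AM608 1 and without each library in turn, and the contrast of batch 2.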

Additional observations from a re-analysis of the deposited data

Results flagged for a closer look

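Of 184 checks of a group within a batch, 12 had a library far from the others, and chance alone flags about 1 in 20 groups. For the log2 ratio of 5' over internal histidine counts, AM608 8 was highest in AM608 of batch 2 at 3.57, with the next library at 0.84. The same library was lowest among these 8 for 4 internal pieces, at log2 CPM values of 5.04 for tRF-35-34HWH3RXSINHZ4, 5.86 for tRF-34-MUWLV47PU9XWK0, 5.51 for tRF-34-34HWH3RXSINHKN and 5.86 for tRF-33-34HWH3RXSINH0P, where the next libraries stood at 10.76, 9.42, 9.36 and 9.18. AM132 12 was lowest in AM132 of batch 2 for tRF-35-34HWH3RXSINHZ4 at 4.96, with the next at 9.05.

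Among 5' pieces, tRF-36-PW5SVP9N15WV7W0 was lowest in AM132 1 of batch 1 at 7.07 (next 10.39). tRF-24-XSXMSL732Z was lowest in AM608 1 of batch 1 at 9.25 (next 9.54) and in AM608 11 of batch 2 at 10.21 (next 10.85). tRF-27-XSXMSL73VL3 was lowest in AM132 6 of batch 2 at 6.04 (next 7.17). AM608 2 was highest in batch 1 for tRF-34-PW5SVP9N15WV2P at 10.09 (next 9.48) and for tRF-33-XSXMSL73VL4YDN at 8.23 (next 7.33).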

How the results depend on the processing

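In the 3 comparisons of groups no member was called under any alternative run, and none in the 32 fits that left out 1 library of AM132 or AM608 each. In those the internal median ran from -0.948 to -0.5624 and the 5' median from 0.2243 to 0.361. The ratio of 5' to internal counts kept its direction in all 11 alternatives. Over all tRFs, DESeq2 called 1 for AM608 minus RCD and no filter on low counts called 1 for AM132 minus RCD. For the AM132 effect by batch, with 3 calls in the report, there were 5 with RLE scaling, 11 with DESeq2, 21 with no filter, 11 with at least 10 CPM, and 0 without AM132 5, AM132 6 and AM608 5. For RCD batch 4 minus batch 2, with 50 calls, there were 93 with DESeq2, 109 with no filter and 28 (without RCD 12) to 52 (without RCD 9) when 1 library of batch 2 was left out, and the members called went from 3 to 11 with no filter and 5 with at least 10 CPM. The cause was not tested.

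Among the members named by rule, in batch 1 alone the sign of AM132 minus AM608 turned for tRF-24-XSXMSL732Z (-0.1632), tRF-34-PW5SVP9N15WV2P (-0.0423), tRF-31-PW5SVP9N15WV0 (-0.1656), tRF-33-XSXMSL73VL4YDN (-0.2865) and tRF-24-FSXMSL732Z (-0.0344). In batch 3 alone it turned for tRF-36-PW5SVP9N15WV7W0 (0.3576), tRF-30-34HWH3RXSINH (0.0319) and tRF-29-34HWH3RXSIHM (0.0499). Of the other members that began at -1 to 3 and ended at 30 to 36, pieces from position 1 that ended at 30 (-0.1103), 32 (-0.0586) and 33 (-0.2606) also turned in batch 1, and tRF-37-6SXMSL73VL4YMYP (0.0764), tRF-35-PW5SVP9N15WV7W (0.4123) and tRF-32-MUWLV47PU9XWP (0.055) in batch 3. None of those named by rule had an adjusted p under 0.05 in either fit.

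With the replicate number as a block, 0 members were called, and tRF-31-6SXMSL73VL4YD had a log2 fold change of 0.8605 for AM132 minus AM608. The labels do not say whether equal numbers mark pairs, and the main fit did not take them as pairs. Of 16 same-numbered pairs, 8 had a correlation of deviations over 0.1 (range -0.603 to 0.8058). Of 16 AM132 libraries, 2 correlated best with their own number. These values cannot decide whether the libraries were paired by design.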

Other observations

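The ratio of 5' to internal counts was also taken for 4 other amino acids' tRNAs. Across the 44 libraries the histidine ratio had a Pearson correlation of 0.95 with that of glutamate tRNAs (Spearman 0.95), and within batches it was 0.88 to 0.97. The Pearson correlation was 0.88 with lysine tRNAs (0.84 to 0.91 within batches) and 0.86 with glycine tRNAs (0.86 to 0.92). Spearman values within batches were 0.48, in batch 1, to 0.83 for lysine and 0.81 to 0.96 for glycine. Valine tRNAs were least alike, with 0.60 over all libraries and 0.02, 0.81, 0.81 and 0.36 in batches 1 to 4. These are descriptions over libraries, which share depth and preparation.

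The ratio of glutamate tRNAs ran from 0.32 to 4.28 across libraries and that of lysine tRNAs from -1.19 to 5.74. That of glycine tRNAs ran from -0.96 to 1.35 and that of valine tRNAs from 0.27 to 1.64, both narrower than the range of the histidine ratio, -2.09 to 4.31.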
